A study of Macaca mulatta with 12 samples.

Results

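The B cell transcription factor genes BACH2, FOXP1, PAX5, EBF1 and BCL6 were followed across annotated B cell subtypes and heavy chain classes in the blood of rhesus macaques. They were chosen by name, as 5 of the 22584 genes listed in the count table, and all 5 were found there under those symbols. The cells came from 6 healthy, unmanipulated juvenile animals of Indian origin, 2 to 3 years old, each sedated with ketamine or ketamine/dexmedetomidine before blood was drawn. Labels placed both males in batch 1 and the 4 females in batch 2, so sex and batch cannot be told apart. Each animal gave a 5′ single-cell expression library and a B cell receptor (BCR) library made from it. Of 13849 cells, 13324 carried the name of 1 of 12 B cell subtypes, and the 525 cells annotated as contamination were left out.

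PAX5 and EBF1 are the factors that commit and hold cells to the B lineage, and both act on genes of the B cell receptor complex. BACH2 and BCL6 are transcriptional repressors, known for holding back the plasma cell regulator PRDM1 and, for BCL6, for directing the germinal centre. FOXP1, a forkhead factor, takes part in early B cell development and is known to be lowered on germinal centre entry.

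Unique molecular identifiers (UMIs) in all cells of an animal summed to 3642517 in female 4 and up to 20023015 in female 3. The B cells held 29031 UMIs of BACH2, 24421 of EBF1, 20072 of FOXP1, 16332 of PAX5 and 4006 of BCL6. BCL6 was therefore the sparsest, with at least 1 UMI in 20.2% of B cells, whereas each of the other 4 genes was detected in 57.5% to 63.5%. Cells of an animal are not replicates, so each value is a sum of counts over the cells of 1 animal in 1 subtype or class, used where it held 10 or more cells. Levels are given as CPM (counts scaled to TMM-adjusted library size), which do not correct for gene length and are compared within a gene only. In summed cells, fewer cells expressing a gene and less RNA of it per cell cannot be told apart. There were 96 barcodes that occurred in more than 1 library.

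The subtypes were annotated by the authors on the same expression values, so levels by subtype are a description without a test. BACH2 varied most between the subtypes other than antibody-secreting cells, by the ratio of the highest to the lowest mean. It averaged 4076 ± 1124 CPM in Naive B cells 3 (SD, n = 4 animals), 1456 ± 413 in Naive B cells 1 and 969.8 ± 529 in Naive B cells 2 (n = 6 each). In Naive B cells 1 the lowest animal had 973 CPM, the median was 1459.7 and the highest was 1990.1. All 4 animals with enough Naive B cells 3 had more BACH2 there, at 3191 and 3138 CPM in males 1 and 2 and 5470.2 and 4504 CPM in females 3 and 4.

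The subtypes M-MBC 1 (643 ± 310 CPM) and Activated B cells (639 ± 407) came next for BACH2. They were followed by CD11c+ MBC 1 (343 ± 258), M-MZL BC (339.8 ± 227) and C-MBC 2 (273 ± 106). The lowest BACH2 levels of the memory subtypes were those of C-MBC 1 (176 ± 162), M-MBC 2 (172 ± 143) and CD11c+ MBC 2 (141 ± 113). Antibody-secreting cells held 75.8 ± 50.8 CPM (n = 3 females, 43 cells and 16 UMIs). Leaving the antibody-secreting cells aside, the highest mean was 28.9 times the lowest, and 10.3 times without Naive B cells 2 and 3. FOXP1 had the next ratio in each case (6.98). Of 11 pairs of neighbours in this order, 3 differed by more than the SD of the paired difference over animals. These were Naive B cells 3 over Naive B cells 1, Naive B cells 2 over M-MBC 1, and C-MBC 2 over C-MBC 1 (1.00 ± 0.79 on the log2 scale, higher in 5 of 6 animals). The other 8 pairs of neighbours did not differ beyond their spread. Neighbours in an order of means are its closest pairs, so subtypes further apart may still differ, here and for the other genes.

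FOXP1 was highest in Activated B cells, with a lowest animal of 441 CPM, a median of 686 and a highest of 1033. Its levels in Naive B cells 3, 2 and 1 (537 ± 257, 439 ± 67.1 and 430.0 ± 114 CPM), M-MZL BC (405 ± 56.6), M-MBC 1 (357 ± 97.8), M-MBC 2 (338 ± 116) and CD11c+ MBC 1 (313 ± 102) formed a gradual series. No neighbours within that series differed beyond their spread. Lower levels were found in CD11c+ MBC 2 (179.8 ± 68.1), C-MBC 1 (148 ± 42.6) and C-MBC 2 (100.3 ± 27.6). Between the CD11c+ subtypes the paired difference was tight. FOXP1 in CD11c+ MBC 2 was 237 and 198 CPM in males 1 and 2, against 412 and 349 CPM in their CD11c+ MBC 1 cells. In females 1 to 4 it was 127, 75.3, 186 and 256 CPM in CD11c+ MBC 2, against 235, 154, 322 and 408 CPM in CD11c+ MBC 1. The CD11c+ MBC 1 value was higher in 6 of 6 animals, by 0.83 ± 0.12 on the log2 scale (SD), although the ranges of the animals overlapped. C-MBC 1 also exceeded C-MBC 2 by more than the spread (0.55 ± 0.40, 5 of 6 animals), and C-MBC 2 exceeded antibody-secreting cells in the 3 animals with both (3.60 ± 2.74).

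PAX5 followed a similar order over a narrower range. Outside antibody-secreting cells its highest mean was 472 ± 146 CPM, in Naive B cells 2, and its lowest 129.6 ± 44.0 CPM in C-MBC 2. Levels in Naive B cells 3 (451 ± 252), Activated B cells (370.2 ± 178), Naive B cells 1 (354 ± 86.2), M-MZL BC (316 ± 127), M-MBC 1 (277 ± 109) and M-MBC 2 (274 ± 118) lay between, with no neighbours apart beyond their spread. The CD11c+ MBC 1 (205 ± 73.2) and C-MBC 1 (197 ± 75.2) cells had lower PAX5 levels, and CD11c+ MBC 2 had 139 ± 52.9. M-MBC 2 stood above CD11c+ MBC 1 in 5 of 6 animals, by 0.36 ± 0.26 on the log2 scale. C-MBC 1 stood above CD11c+ MBC 2 in 6 of 6 animals, by 0.49 ± 0.23, and C-MBC 2 above antibody-secreting cells in 3 of 3, by 3.95 ± 2.40. Antibody-secreting cells, which lack PAX5 in textbook accounts, held 3 PAX5 UMIs in 43 cells, with no UMI in female 1 and 14.4 and 31.1 CPM in females 3 and 4. Their FOXP1 count was 4 UMIs, at 27.7 CPM in female 1, none in female 3 and 15.6 CPM in female 4.

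EBF1 was flatter among the subtypes with ordinary RNA content. It averaged 443 ± 210 CPM in Naive B cells 1, 419.6 ± 158 in Activated B cells, 396 ± 129 in C-MBC 1, 376 ± 195 in M-MBC 2, 367 ± 170 in M-MZL BC and 358 ± 182 in M-MBC 1. CD11c+ MBC 1 (298 ± 113), C-MBC 2 (278 ± 129) and CD11c+ MBC 2 (258 ± 137) were at the lower end. The highest mean of these 9 subtypes was 1.72 times the lowest, and no neighbours in the whole order differed beyond their spread. Naive B cells 2 (1283 ± 695 CPM, n = 6) and Naive B cells 3 (1245 ± 997, n = 4) had the highest means. In Naive B cells 2 the lowest animal had 372 CPM, the median was 1332 and the highest was 2059. Paired with Naive B cells 1, EBF1 was higher in Naive B cells 2 of 6 of 6 animals (1.48 ± 0.70 on the log2 scale, SD). It was lower in CD11c+ MBC 2 (-0.76 ± 0.70), C-MBC 2 (-0.66 ± 0.26) and M-MBC 1 (-0.30 ± 0.19), each in 6 of 6. CD11c+ MBC 1 (-0.49 ± 0.37) and M-MZL BC (-0.29 ± 0.21) had less EBF1 in 5 of 6 animals each. Activated B cells (0.02 ± 0.62), C-MBC 1 (-0.04 ± 0.52) and M-MBC 2 (-0.22 ± 0.29) were within their spread.

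BCL6 had a different order from the other 4 genes. It was highest in CD11c+ MBC 2 (93.1 ± 51.4 CPM, animals between 31.9 and 171 with a median of 89.0), CD11c+ MBC 1 (79.3 ± 35.8) and Naive B cells 1 (76.6 ± 36.3). C-MBC 1 (59.7 ± 37.1), M-MBC 1 (57.9 ± 21.6), M-MBC 2 (32.3 ± 17.2) and, between them, Naive B cells 3 (46.8 ± 31.2) and 2 (39.9 ± 21.2) followed. M-MZL BC averaged 28.7 ± 15.9 CPM, and the Activated B cells 24.0 ± 21.0. C-MBC 2 had 16.4 ± 5.96 CPM, and its animals lay between 8.43 and 23.7. No neighbours in the order of BCL6 differed beyond their spread. The lowest value in CD11c+ MBC 2 lay above the highest in C-MBC 2. That pair was picked as the ends of this order outside antibody-secreting cells, which favours such a gap. The share of all genes with a gap like it was not taken.

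**Figure D1:**
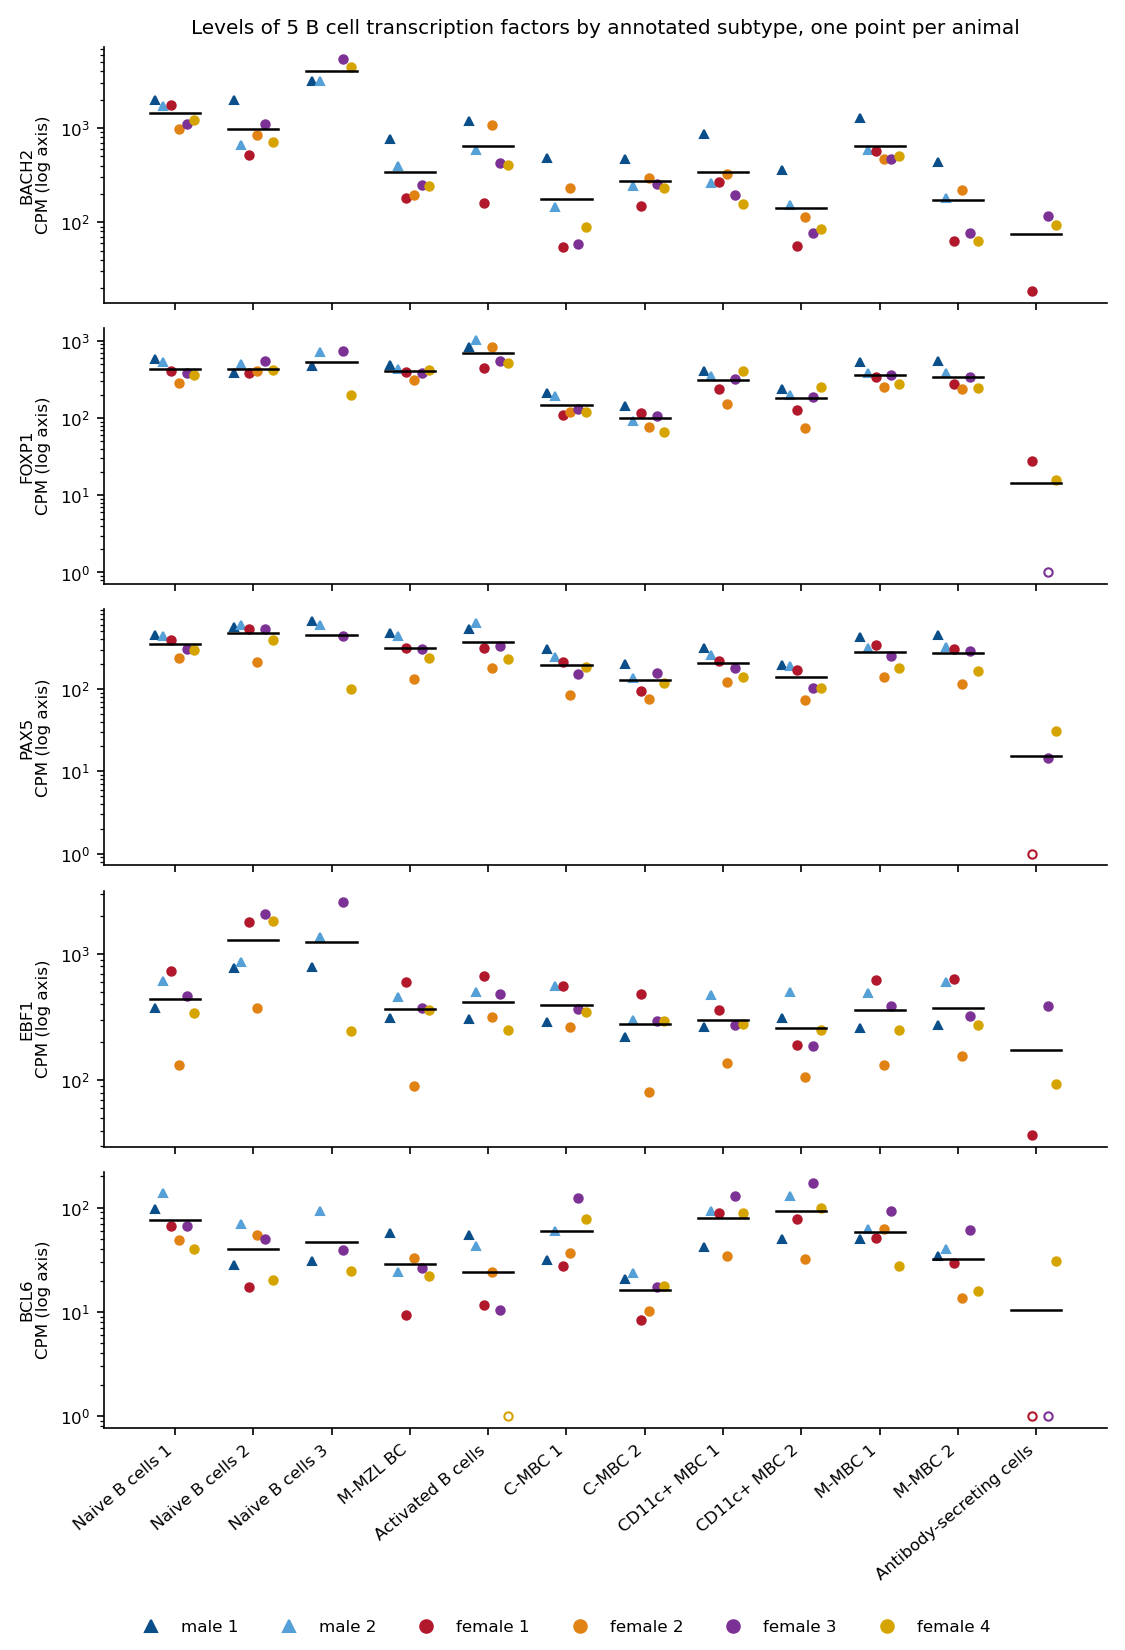
Level of each gene (CPM, log axis) in each annotated subtype, one point per animal and a bar at the mean over animals; open points at 1 stand for sums without a UMI. BACH2 has its highest means in the 3 naive subtypes, whereas BCL6 is highest in the CD11c+ subtypes and lowest in C-MBC 2 and antibody-secreting cells.

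Naive B cells 2 and 3 differed in RNA quality from all subtypes but antibody-secreting cells, beside their high BACH2 and EBF1 levels. In Naive B cells 2 the ribosomal protein share of UMIs averaged 3.91%, in Naive B cells 3 it averaged 5.74%, and in Naive B cells 1 it averaged 21.2%. Antibody-secreting cells, with the lowest BACH2 and EBF1 means, averaged 4.1%. The mitochondrial share averaged 4.27% in Naive B cells 2, 4.20% in Naive B cells 3 and 4.05% in antibody-secreting cells. In Naive B cells 1 it was 2.50%. Cells with any BCR contig came to 28.9% in Naive B cells 2 and 38.2% in Naive B cells 3, where Naive B cells 1 had 96.2%. The part of these features in the levels of BACH2 and EBF1 was not tested. With ribosomal protein genes taken out of the library sizes, an alternative chosen after seeing the data, no subtype level of the 5 genes moved beyond the spread between animals. That alternative changes only the scaling of the sums, so the part of RNA quality was not tested by it.

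The share of cells with a UMI was also taken at equal depth. With each cell thinned to 2000 UMIs, BACH2 was detected in 79.6% ± 10.1 of Naive B cells 1, 51.1% ± 12.1 of M-MBC 1 and 16.9% ± 10.7 of CD11c+ MBC 2 (SD, n = 6). FOXP1 was detected in 56.7% ± 5.40 of Activated B cells and 17.0% ± 5.61 of C-MBC 2, and PAX5 in 35.8% ± 5.66 of Naive B cells 1 and 15.4% ± 4.22 of C-MBC 2. EBF1 shares lay between 30.3% ± 12.1 in CD11c+ MBC 2 and 41.3% ± 8.17 in C-MBC 1 among the subtypes other than Naive B cells 2 and 3 and antibody-secreting cells. BCL6 was detected in 12.4% ± 5.66 of CD11c+ MBC 2 and 2.37% ± 1.41 of C-MBC 2. In antibody-secreting cells thinned alike (n = 3), the share was 9.44% ± 10.0 for BACH2, 0% for FOXP1, 4.44% ± 7.70 for PAX5, 11.1% ± 5.09 for EBF1 and 2.22% ± 3.85 for BCL6. The BCL6 share of antibody-secreting cells rests on 1 cell of 49 (exact 95% interval 0.0517% to 10.8%, counting error only), so it sets no level of background for BCL6. FOXP1 also had a UMI in 1 of these 49 cells, from an animal with too few cells to enter the mean. Its 0% is therefore not an absence. Unthinned, BCL6 had a UMI in 8.23% ± 1.85 of C-MBC 2 cells (SD, n = 6) and in 3 of 56 antibody-secreting cells. Unthinned, median UMIs per cell averaged 7412 in C-MBC 2 and 9154 in antibody-secreting cells. Thinning left out 7 of 475 C-MBC 2 cells and 42 of 1614 Naive B cells 1, but 156 of 446 Naive B cells 2 and 73 of 125 Naive B cells 3.

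Across the 12 subtype means on the log2 scale, FOXP1 and PAX5 had the most similar patterns of the 5 genes (Pearson r = 0.974, and 0.976 over the 10 subtypes without Naive B cells 2 and 3). The lowest r was that of BACH2 with BCL6 (0.358 over 12 subtypes and 0.413 over 10). PAX5 and EBF1 had r = 0.802 over 12 subtypes and 0.957 over 10. Among 6471 named genes averaging at least 4 in log2 CPM, BACH2 was most like TBC1D1 (r = 0.983), ZFX (0.970) and PIK3CA (0.962), and FOXP1 most like CLEC17A (0.983), APP (0.983) and PAX5. The genes most like PAX5 were NOTCH2 (0.981), TMEM192 (0.981) and APP (0.976). EBF1 was most like UBAP1 (0.989), ZHX2 (0.979) and ARFGEF1 (0.979), and BCL6 most like USP11 (0.962), RNF130 (0.947) and GLIPR1L2 (0.928). Without Naive B cells 2 and 3, TBC1D1 stayed the most similar to BACH2 (0.968), while EBF1 was closest to RPRD1B (0.987), WTAP (0.980) and RPGR (0.979). All these points share 12 subtypes and the same libraries, and the values are a description. Both settings kept antibody-secreting cells, where FOXP1 averaged 14.4 CPM on 4 UMIs and PAX5 averaged 15.2 CPM on 3 UMIs. No r was taken without that low point, so its part in these values is not known.

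To ask how the 5 genes went with class switching, the class of a cell was read from the constant gene of its single productive heavy chain in the BCR library. Switched cells (IgG, IgA or IgE, 2380 cells) were compared with unswitched cells (IgM or IgD, 7913 cells) of the same 6 animals. BACH2, FOXP1 and PAX5 fell in switched cells, and EBF1 and BCL6 did not pass the test. These are 3 of 5 genes, where 11.7% of the 9649 genes tested fell and 13.3% rose at an adjusted p under 0.05 by edgeR's quasi-likelihood test, with the animal as a block.

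BACH2 in switched cells had a lowest animal of 91.5 CPM, a median of 125 and a highest of 456, against 369, 442 and 1040.0 CPM in unswitched cells. Male 1 was highest in both classes, and its switched cells were within the range of the unswitched cells of the others, so the groups overlapped. The means were 183 ± 139 and 533 ± 257 CPM, a log2 difference of -1.66 ± 0.13 (SE, n = 6, adjusted p = 6.19e-07 by edgeR). BACH2 was lower in 6 of 6 animals, which held for 12.3% of genes tested.

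FOXP1 in switched cells had a lowest animal of 89.8 CPM, a median of 170.3 and a highest of 234, against 249.7, 347 and 494 CPM in unswitched cells. All 6 switched values lay below all 6 unswitched values, which held for 0.653% of genes tested. The log2 difference was -1.20 ± 0.08 (SE, adjusted p = 7.45e-08 by edgeR, lower in 6 of 6 animals). PAX5 in switched cells had a lowest animal of 73.2 CPM, a median of 152 and a highest of 252, against 128, 247 and 405 CPM in unswitched cells. The groups overlapped, with female 2 lowest in both, and PAX5 was lower in switched cells of 6 of 6 animals (-0.78 ± 0.06, adjusted p = 7.68e-07 by edgeR).

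EBF1 in switched cells had a lowest animal of 174 CPM, a median of 273 and a highest of 431, against 122, 345 and 510.0 CPM in unswitched cells. It was lower in 5 of 6 animals, female 2 being the exception, and did not pass the test (-0.16 ± 0.10, adjusted p = 0.267 by edgeR). Without female 2 the EBF1 difference was -0.28 and passed (adjusted p = 0.00898 by edgeR). BCL6 in switched cells had a lowest animal of 24.6 CPM, a median of 50.4 and a highest of 131, against 28.9, 50.3 and 76.1 CPM in unswitched cells. It was higher in 3 animals and lower in 3 (0.18 ± 0.16, adjusted p = 0.441 by edgeR). Its switched cells were highest in female 3, and without that animal the difference was -0.04.

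Within the males (batch 1) the differences were -1.50 for BACH2, -1.24 for FOXP1, -0.81 for PAX5, -0.12 for EBF1 and -0.03 for BCL6. Within the females (batch 2) they were -1.74, -1.18, -0.76, -0.18 and 0.28 for the same genes in that order. Markers of other cell types were found in both classes. In the cells annotated as contamination, T cell markers summed to a median of 975 CPM, NK cell markers to 236 and monocyte markers to 47.85. Dendritic cell markers summed to 8.67 CPM there, and platelet and red cell markers to 119. The 8 T cell markers summed to a median of 111 CPM (51.5 to 266) in switched cells and 113 CPM (96.3 to 298) in unswitched cells. In switched cells the 5 NK cell markers summed to 53.6 CPM (17.4 to 192), the 5 monocyte markers to 65.1 (47.6 to 84.2), the 4 dendritic cell markers to 19.9 (5.55 to 40.7, with 2 of them at 0) and the 3 platelet and red cell markers measured to 157 (26.6 to 225). In unswitched cells these lists summed to 36.5 (8.99 to 154), 56.5 (28.9 to 115), 13.9 (7.39 to 25.9) and 208 CPM (14.0 to 277). By edgeR's test 1 T cell marker rose and 3 fell of 8 tested, 1 NK cell marker rose of 3, 1 monocyte marker rose of 2, and 2 platelet and red cell markers fell of 3. The part of these cell types in the differences was not tested.

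Thinned to 2000 UMIs, switched cells had a UMI of BACH2 in 21.4% ± 9.87, of FOXP1 in 21.7% ± 4.89 and of PAX5 in 21.6% ± 6.37 of cells (SD, n = 6). The shares in unswitched cells were 45.1% ± 11.8, 41.5% ± 6.15 and 33.1% ± 7.19 for these genes. For EBF1 they were 34.9% ± 9.58 in switched and 37.2% ± 12.3 in unswitched cells, and for BCL6 8.73% ± 4.22 in switched and 7.56% ± 2.51 in unswitched cells.

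The same comparison was made within the memory subtypes, where naive cells no longer enter the unswitched group. BACH2, FOXP1 and PAX5 again fell, 3 of 5 genes where 6.93% of 9247 genes tested fell and 7.11% rose. BACH2 in switched memory cells had a lowest animal of 92.3 CPM, a median of 123 and a highest of 431, against 227, 279.9 and 826 CPM in unswitched memory cells (log2 difference -1.11 ± 0.09 SE, adjusted p = 2.27e-07 by edgeR). FOXP1 had a lowest animal of 77.8 CPM, a median of 158 and a highest of 221 in switched memory cells, against 183, 291 and 431 CPM in unswitched ones (-0.99 ± 0.07, adjusted p = 3.6e-08 by edgeR). PAX5 had a lowest animal of 74.5 CPM, a median of 154 and a highest of 249.7 in switched memory cells, against 110.0, 221 and 347 CPM in unswitched ones (-0.50 ± 0.06, adjusted p = 1.19e-05 by edgeR). Each of these was lower in 6 of 6 animals, as were 7.6% of genes tested, and each group overlapped its counterpart. EBF1 averaged 299.7 ± 97.9 CPM in switched and 297 ± 130 CPM in unswitched memory cells (0.04 ± 0.08, adjusted p = 0.819 by edgeR). BCL6 averaged 63.6 ± 38.3 CPM in switched and 54.0 ± 24.0 CPM in unswitched memory cells (0.11 ± 0.12, adjusted p = 0.621 by edgeR). Without female 2 the EBF1 value was -0.05, and without female 3 that of BCL6 was -0.03.

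**Figure D2:**
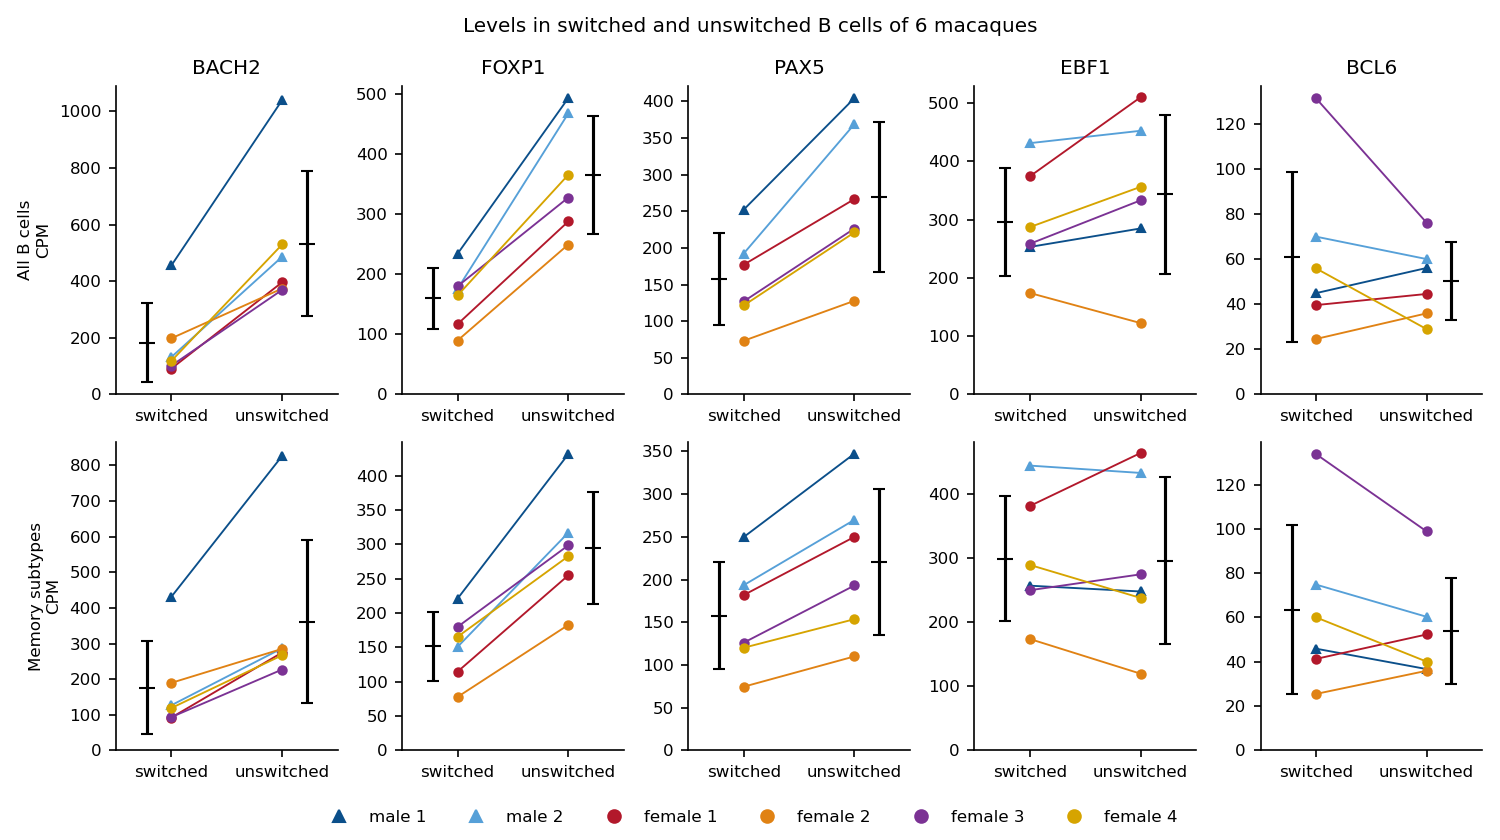
Level of each gene (CPM) in switched and unswitched cells, over all B cells (top) and within memory subtypes (bottom), with a line per animal and black bars for the mean and SD over 6 animals. Every line of BACH2, FOXP1 and PAX5 is lower at the switched end, and the lines of EBF1 and BCL6 run in both directions.

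Switched and unswitched memory cells still lie in different subtypes, so class was next compared with the subtype held fixed. For this each of 27 pairs of sums came from 1 animal and 1 memory subtype, with 10 or more cells of each class. The pairs came from 6 animals and share them, so they are not independent, and the p-values of this fit and of the joint test over subtypes may be too small. BACH2 and FOXP1 fell, 2 of 5 genes where 2.91% of 5049 genes tested fell and 2.26% rose. BACH2 was lower in 22 of 27 pairs (-0.42 ± 0.08 SE, adjusted p = 0.000349 by edgeR) and FOXP1 in 25 of 27 (-0.46 ± 0.07, adjusted p = 9.77e-07 by edgeR). PAX5 was lower in 19 of 27 pairs and did not pass the test (-0.11 ± 0.07, adjusted p = 0.493 by edgeR). EBF1 was at 0.10 ± 0.06 (adjusted p = 0.435 by edgeR) and BCL6 at 0.23 ± 0.10 (adjusted p = 0.204 by edgeR), each higher in 17 of 27 pairs. Within the males BACH2 was at -0.58 and FOXP1 at -0.39 (adjusted p = 0.0991 by edgeR), and within the females BACH2 was at -0.32 (adjusted p = 0.0554 by edgeR) and FOXP1 at -0.48.

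The class difference of each gene was then set out by memory subtype. FOXP1 was at -1.11 ± 0.29 in C-MBC 2 (SE, n = 3 animals), -0.75 ± 0.16 in C-MBC 1 (n = 5), -0.51 ± 0.22 in M-MBC 2 (n = 3), -0.34 ± 0.14 in CD11c+ MBC 2 (n = 5), -0.34 ± 0.11 in CD11c+ MBC 1 (n = 6) and -0.33 ± 0.16 in M-MBC 1 (n = 5). Its sign was negative in all 6 subtypes, as was that of BACH2. The share of all genes with the same sign in all 6 was not taken. BACH2 was at -0.78 ± 0.20 in C-MBC 1, -0.77 ± 0.27 in C-MBC 2, -0.61 ± 0.52 in M-MBC 2, -0.53 ± 0.16 in M-MBC 1 and -0.52 ± 0.18 in CD11c+ MBC 2, but at -0.04 ± 0.13 in CD11c+ MBC 1. For PAX5 the value was -0.96 ± 0.26 in C-MBC 2 and between -0.24 and 0.14 in the other 5 subtypes. EBF1 ranged from -0.45 ± 0.20 in C-MBC 2 to 0.34 ± 0.12 in CD11c+ MBC 2. BCL6 ranged from -0.28 ± 0.53 in M-MBC 2 to 0.69 ± 0.95 in C-MBC 2. A joint test of whether the class difference varied between subtypes called none of the 5 genes by edgeR, with unadjusted p of 0.00881 for EBF1, 0.0114 for PAX5, 0.0204 for BACH2, 0.0626 for FOXP1 and 0.740 for BCL6. Adjusted over 5049 genes these became 0.420, 0.449, 0.502, 0.677 and 0.975, and 0.257% of genes were called, with 399 genes at an unadjusted p under 0.05. A difference between subtypes was thus not shown for any of them.

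**Figure D3:**
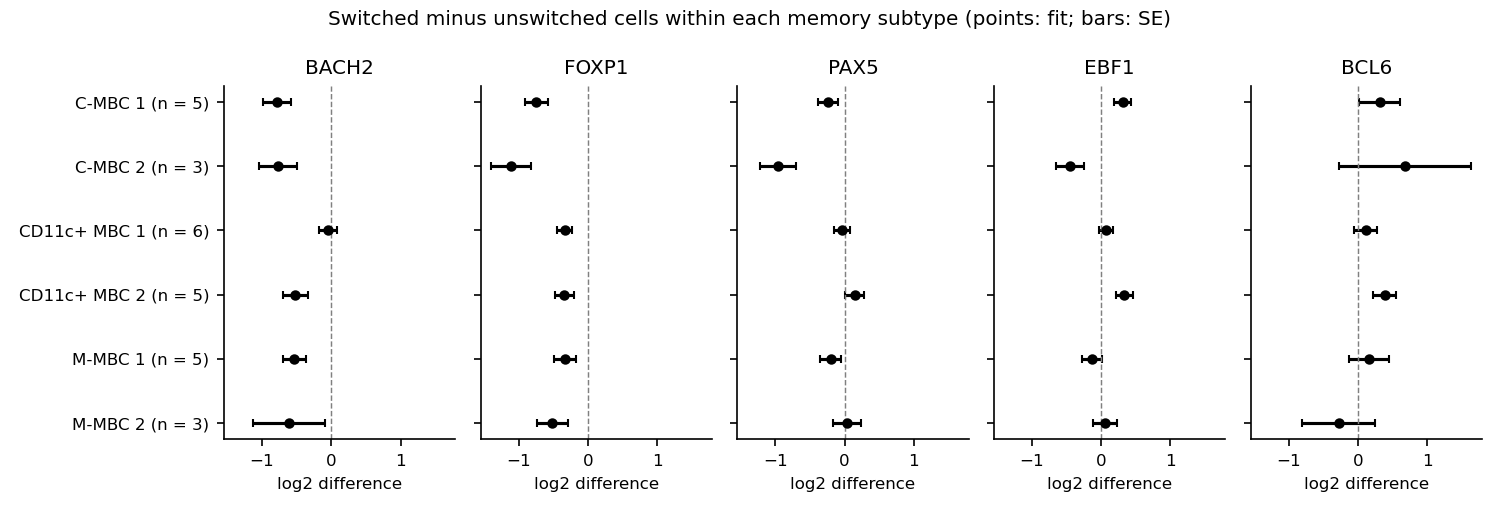
Log2 difference of switched minus unswitched cells within each memory subtype, as points with SE bars from a fit with each pair of animal and subtype as a block; n is the number of animals with both classes. FOXP1 and BACH2 both lie below 0 in all 6 subtypes, with BACH2 near 0 in CD11c+ MBC 1.

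Among unswitched cells, IgD cells were set against IgM cells as a description, since cells of one class lie in other subtypes than those of the next. IgD or IgM means here only the constant gene named on the single heavy chain contig. The split varied by animal, with 372 IgD and 378 IgM cells in female 2 but 185 and 1568 in female 1. BCL6 was 62.9 ± 23.5 CPM in IgD and 48.3 ± 16.4 CPM in IgM cells, higher in IgD cells of 6 of 6 animals (0.37 ± 0.20 on the log2 scale, SD). BACH2 was 744 ± 319 in IgD and 506 ± 243 CPM in IgM cells, higher in 5 of 6. Within Naive B cells 1 the IgD minus IgM difference was -0.14 ± 0.36 for BCL6 and -0.08 ± 0.42 for BACH2, both within the spread. Over all B cells the IgD minus IgM difference was -0.04 ± 0.08 for FOXP1, 0.01 ± 0.16 for PAX5 and -0.03 ± 0.14 for EBF1. Within Naive B cells 1 FOXP1 was lower in IgD cells of 5 of 6 animals, by a little more than the spread (-0.23 ± 0.22). Of the IgG cells, 2163 used IGHG1, in which BACH2 averaged 184 ± 143, FOXP1 171 ± 55.8, PAX5 171 ± 68.2, EBF1 314 ± 106 and BCL6 67.4 ± 38.9 CPM (SD, n = 6). IGHG2 reached 10 cells in 2 animals only.

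IgA cells were compared with IgG cells in the 5 animals with 10 or more cells of each, and female 2, with fewer IgA cells, was left out. BCL6 and PAX5 fell in IgA cells, 2 of 5 genes where 7.96% of 6559 genes tested fell. BCL6 in IgA cells was 8.66 CPM in male 1, 51.3 in male 2, 12.5 in female 1, 37.6 in female 3 and 15.5 in female 4. In IgG cells of the same animals it was 49.5, 74.2, 45.0, 137 and 63.6 CPM. It was lower in 5 of 5 animals, as were 12.6% of genes tested, while the highest IgA value overlapped the lowest IgG values. The log2 difference was -1.64 ± 0.30 (SE, n = 5, adjusted p = 0.000289 by edgeR), and it rests on 22 BCL6 UMIs in IgA cells, 1 to 9 per animal.

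PAX5 in IgA cells was 164 CPM in male 1, 119.7 in male 2, 56.5 in female 1, 129.5 in female 3 and 23.2 in female 4. In the IgG cells of these animals it was 265, 207, 201, 128 and 139.8 CPM, so that the groups overlapped and only female 3 did not have less PAX5 in IgA cells. The log2 difference was -0.95 ± 0.23 (SE, adjusted p = 0.00551 by edgeR), and without female 1 it was -0.66 and no longer passed (adjusted p = 0.0798 by edgeR). EBF1 averaged 234 ± 65.5 CPM in IgA and 342 ± 94.0 CPM in IgG cells (-0.47 ± 0.16, adjusted p = 0.0592 by edgeR), and FOXP1 averaged 125 ± 53.6 CPM in IgA and 183 ± 43.4 CPM in IgG cells (-0.50 ± 0.20, adjusted p = 0.113 by edgeR). EBF1 passed without female 3 (-0.64, adjusted p = 0.0247 by edgeR) and FOXP1 without male 2 (-0.65, adjusted p = 0.0478 by edgeR). BACH2 averaged 208 ± 140 CPM in IgA and 181 ± 158 CPM in IgG cells (0.33 ± 0.20, adjusted p = 0.326 by edgeR).

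IgA and IgG cells also lay in different subtypes. Of 153 IgA cells 90 were C-MBC 2, the subtype with the lowest BCL6 and PAX5 outside antibody-secreting cells, and 15 were antibody-secreting cells. Of 2217 IgG cells 168 were C-MBC 2 and 10 were antibody-secreting cells. Within C-MBC 2 alone, an alternative chosen after seeing the data, PAX5 was at -1.39 (adjusted p = 0.00308 by edgeR), FOXP1 at -0.47, EBF1 at -0.33 and BACH2 at -0.27, and BCL6 was too low to be tested. The IgA sums there held only 12 to 23 cells, with PAX5 between 0 and 107 CPM. PAX5 was lower in IgA cells of 5 of 5 animals, but the paired difference varied widely (-2.35 ± 2.68 on the log2 scale, SD). Within batch 1 (2 males) neither gene was called, with BCL6 at -1.05 (adjusted p = 0.431 by edgeR) and PAX5 at -0.72 (adjusted p = 0.202 by edgeR). Within batch 2 both were called, with BCL6 at -1.87 (adjusted p = 0.000344 by edgeR) and PAX5 at -1.08 (adjusted p = 0.0195 by edgeR).

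**Figure D4:**
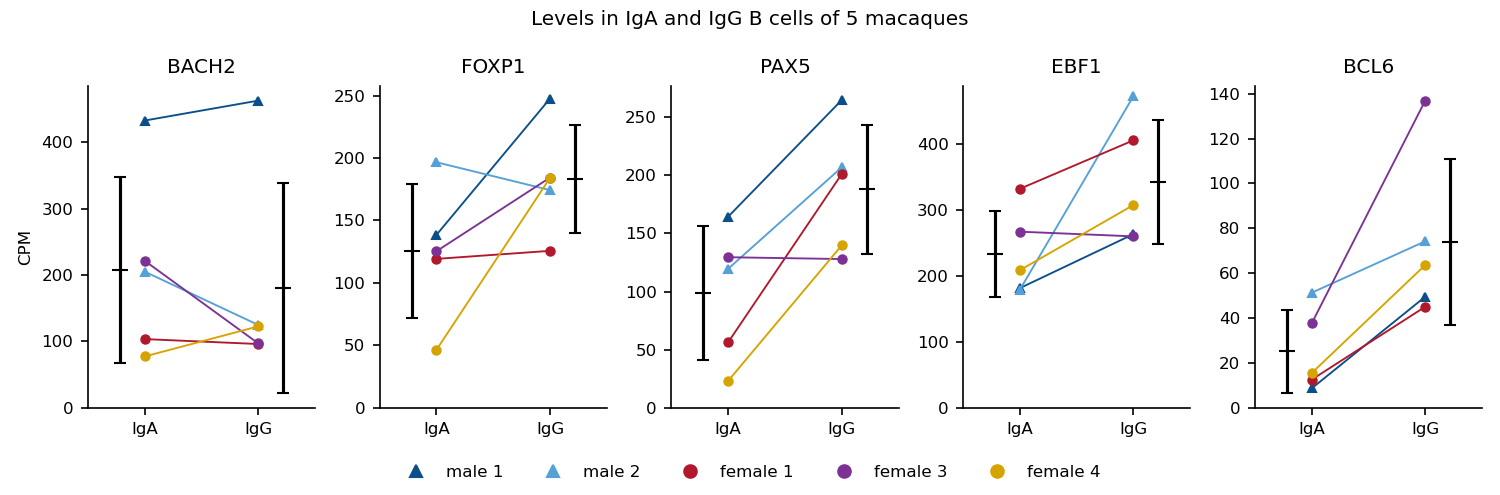
Level of each gene (CPM) in IgA and IgG B cells, with a line per animal (5 animals) and black bars for the mean and SD. BCL6 is lower in IgA cells of all 5 animals and PAX5 in 4 of them, whereas BACH2 moves either way.

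Other genes tied to the 5 factors were counted by list in the comparison of all switched with unswitched cells, to be read against the 13.3% of genes that rose and 11.7% that fell. Counts within memory cells are to be read against 7.11% that rose and 6.93% that fell, and counts with the subtype held fixed against 2.26% and 2.91%. Of 20 other B lineage transcription factors 19 were tested, of which 1 rose and 6 fell, with a median log2 difference of -0.01, against -0.00 over all genes. MEF2C, a factor of B cell receptor responses, rose (0.78 ± 0.07, adjusted p = 9.48e-07 by edgeR) and TCF4, an E protein, fell (-0.64 ± 0.06, adjusted p = 3.54e-06 by edgeR). Of 18 partners and relatives of the 5 factors 12 were tested, of which 4 rose and 1 fell. The one that fell was BCOR, a co-repressor that binds BCL6 (-0.71 ± 0.08). Within memory cells BCOR was at -0.59 ± 0.09 and ZBTB7A, of the same list, at 0.40 ± 0.07. FOXO1, of the list of other B lineage transcription factors, was at -0.47 ± 0.07 there.

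Of 10 genes known to be activated by PAX5 or EBF1, 6 fell and 1 rose, with a median of -0.67. CD72, an inhibitory co-receptor, had 21.8 ± 13.8 CPM in switched and 92.3 ± 15.7 CPM in unswitched cells (-2.35 ± 0.22, adjusted p = 2.62e-06 by edgeR). CR2, the complement receptor CD21, had 9.18 ± 3.68 CPM in switched and 29.2 ± 9.32 CPM in unswitched cells (-1.70 ± 0.17, adjusted p = 4.05e-06 by edgeR). Within memory cells CR2 did not pass the test (0.38 ± 0.24, adjusted p = 0.349 by edgeR). There 6 genes of the list fell, where 6.93% of all genes did, among them CD72 (-2.24 ± 0.18) and CD79A, a chain of the receptor complex (-0.29 ± 0.04). The 1 that rose there, named after its value was seen, was VPREB3 (1.39 ± 0.20). With the subtype held fixed 2 of 7 tested fell, where 2.91% of all genes did, and 0 rose. These were CD72 (-0.81 ± 0.14) and the receptor chain gene CD79B (-0.29 ± 0.06).

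Of 9 measured genes known to be repressed by BCL6 or BACH2, 4 rose and 2 fell in switched cells, with a median of 0.01. PRDM1, the plasma cell regulator, had 21.3 ± 8.52 CPM in switched and 9.60 ± 3.03 CPM in unswitched cells (1.18 ± 0.17, adjusted p = 0.0001 by edgeR). BCL2, the survival gene, went the other way (-0.70 ± 0.07, adjusted p = 2.78e-06 by edgeR). Within memory cells 3 rose, where 7.11% of all genes did, and 0 fell, with PRDM1 at 1.02 ± 0.18 and the activation antigen gene CD69 at 0.65 ± 0.17. With the subtype held fixed 1 of 7 tested rose (CD69, 0.52 ± 0.09), where 2.26% of all genes did, and 1 fell (BCL2, -0.31 ± 0.07), where 2.91% did. Of 7 tested genes of the plasma cell programme 4 rose and 1 fell, with a median of 0.65 and SEC11C, a signal peptidase subunit, at 0.79 ± 0.08. The fallen one was IRF4 (-0.49 ± 0.13), named after its value was seen. With the subtype held fixed 1 of 4 tested rose (SEC11C, 0.43 ± 0.08) and 2 fell, with a median of -0.26. Those that fell there were IRF4 (-0.43 ± 0.07) and MZB1 (-0.57 ± 0.14), also named after their values were seen. CCND2 was not analysed here.

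Animals differed in the level of these genes over all B cells. BACH2 was 947 and 449 CPM in males 1 and 2, against 297, 319, 314 and 396 CPM in females 1 to 4. FOXP1 was 443 and 435 CPM in the males, against 232, 185, 269 and 274 CPM in the females. PAX5 was 375 and 349 CPM in the males, against 243, 109, 192 and 183 CPM in the females. For these 3 genes both males lay above all 4 females, which held for 14.7% of 11180 genes tested. None of the 5 genes passed edgeR's test of males against females, in which 0.34% of genes were called, and 1976 of 11180 had an unadjusted p under 0.05. The log2 differences were 1.08 ± 0.29 for BACH2 (SE, adjusted p = 0.142 by edgeR), 0.87 ± 0.21 for FOXP1 (0.122) and 1.00 ± 0.29 for PAX5 (0.155). By DESeq2 the same 3 genes passed, with adjusted p of 0.0241, 0.0115 and 0.0423. DESeq2 called 633 genes in this comparison, where edgeR called 38. EBF1 was 290.0 and 493 CPM in the males, against 476, 143, 359.5 and 342 CPM in the females (0.25 ± 0.43, adjusted p = 0.795 by edgeR). BCL6 was 49.6 and 58.9 CPM in the males, against 44.9, 34.3, 99.98 and 40.6 CPM in the females (-0.03 ± 0.42, adjusted p = 0.981 by edgeR).

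The order of animals recurred across subtypes. Among the 10 subtypes with all 6 animals, male 1 had the highest BACH2 in 10, the highest PAX5 in 8 and the highest FOXP1 in 7. Female 2 had the lowest PAX5 in 10 and the lowest EBF1 in 9, and female 1 the highest EBF1 in 7 and the lowest BACH2 in 7. For BCL6, female 3 was highest in 5 subtypes. The male mean exceeded the female mean in 10 of 10 subtypes for BACH2, FOXP1 and PAX5, in 7 for EBF1 and in 6 for BCL6. Both males lay above all females in 8 of these subtypes for PAX5, in 6 for FOXP1, in 3 for BACH2, in 3 for BCL6 and in 1 for EBF1. The share of all genes with such a separation was not taken by subtype. These subtypes share the same 6 animals, so the counts are not independent.

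**Figure D5:**
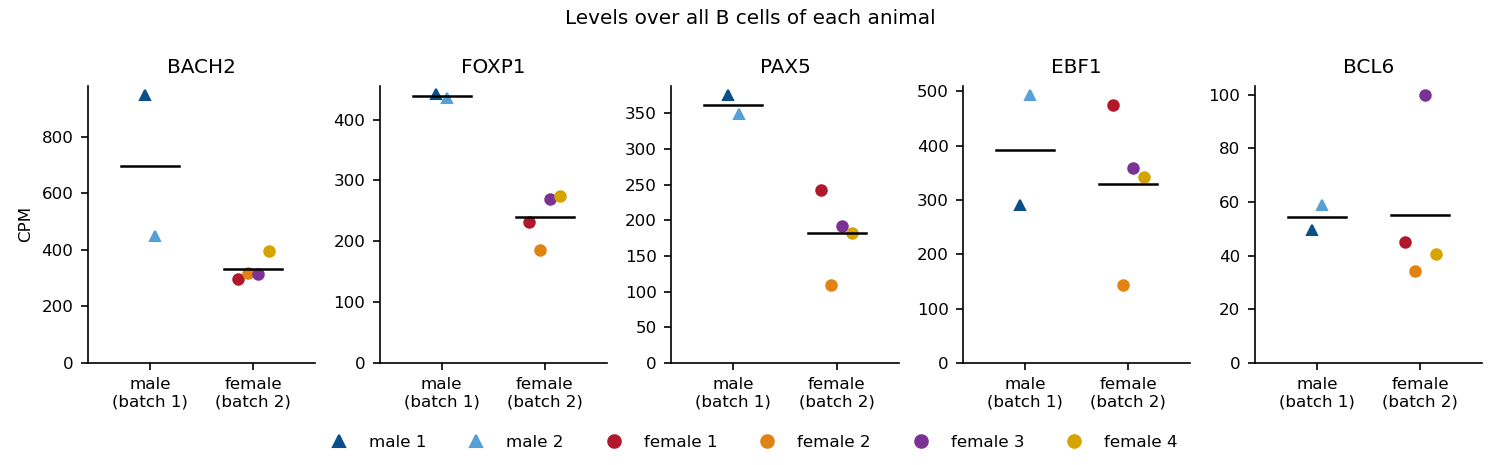
Level of each gene (CPM) over all B cells of each animal, males (batch 1) left of females (batch 2), with a bar at the mean. Both males lie above all 4 females for BACH2, FOXP1 and PAX5, and female 2 is lowest for FOXP1, PAX5, EBF1 and BCL6.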

How the data were processed

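Blood mononuclear cells of 6 macaques were captured with a 10x 5′ kit, and expression and BCR libraries were sequenced, per the labels' protocols. The matrix deposited by the authors holds raw UMI counts for 13849 cells and 22584 genes. Their deposited cell table gives library, subtype name and doublet call, and as a percent of UMIs the mitochondrial and the ribosomal protein reads. The deposited BCR tables gave UMI and read counts and gene names of contigs, per the file headers. Seurat 5.0.1, Cell Ranger 9.0.1 and R 4.3.1 are listed in the submitters' processing notes, and the genome build is not given in the sources used here. All cells carried the doublet call Singlet, and UMIs per cell ran from 500 to 39732.

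Unnamed identifiers (5813 genes, 14.9% of UMIs) and 23 immunoglobulin genes entered neither library sizes nor tests. B cells with no heavy chain (2636), with 2 or more (282) or without a constant gene (113) entered no comparison by class, which left 10293. Sums of raw counts were formed for each animal by class or subtype, with 10 or more cells per sum. Sums were tested with edgeR 4.0.16 in R 4.3.3 (filterByExpr, TMM, quasi-likelihood F test, Benjamini-Hochberg over all genes tested), and genes with an adjusted p under 0.05 are called. The animal was the block because both classes of a pair were taken from 1 animal. Library sizes ran from 43369 counts in the sums by memory subtype to 17106600 in those of the sexes. DESeq2 1.42.0, other scalings and filters, other cell minimums, single batches and leaving out each animal were alternatives. The fits were tested on simulated data.

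Beside the 5 genes, the text names from each list the 2 members with the smallest p in the comparisons of all and of memory cells, and the 3 genes most like each factor. The genes and lists were chosen with earlier results of these data known. Promoter motifs were planned, but no sequences of these genes were used here. Some list members that this rule or a count would name are not reported here. MALAT1, NEAT1, CCND2 and HBB were not analysed here. Animals are named by sex and their order within it.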

Additional observations from a re-analysis of the deposited data

Results flagged for a closer look

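The level of BACH2 in male 1 stood apart from those of the other 5 animals in 4 subtypes, by the size of its gap to the next animal relative to the whole range. In CD11c+ MBC 1 it was 856 CPM, against 158 to 324 CPM in the others. In CD11c+ MBC 2 it was 362 CPM, against 55.5 to 152 CPM. In M-MBC 1 it was 1267 CPM, against 465 to 586 CPM, and in M-MZL BC it was 775 CPM, against 180 to 399 CPM. These are 4 of 70 sets of animals examined for the 5 genes, and chance alone marks about 1 in 20. The number flagged is near that share, and the 4 sets share the same gene and animal, so they are not independent. Without male 1 the switched minus unswitched difference of BACH2 remained called in all 3 comparisons by class.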

How the results depend on the processing

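Of the differences of the 5 genes recomputed under alternatives, 332 kept their direction and side of the threshold, 14 lost the call, 8 gained it and 10 changed sign. BCL6 changed sign in all switched cells with batch 1 alone (-0.0314) and across animals left out (-0.0405 to 0.294), and in memory cells (-0.0342 to 0.243). EBF1 did so in memory cells (-0.0488 to 0.129) and between the sexes (-0.19 to 0.58, with -0.0036 without female 2). BCL6 between the sexes ran over -0.20 to 0.44 and was 1.02 in Naive B cells 1 alone. BACH2 in IgA cells was -0.27 in C-MBC 2 alone. None of these was called, and the cause was not tested. Genes called in all, memory and subtype-fixed switched cells numbered 2416, 1298 and 261, and 856 for IgA, 38 for sex and 13 for subtypes. With no replicate block these were 104, 28 and 14, and 263 for IgA. Without the block FOXP1 in all switched cells stayed called (adjusted p = 0.0221 by edgeR), while BACH2 (0.0975) and PAX5 (0.367) did not, nor did any of the 5 genes in the other class comparisons. Batch 1 alone gave 349, 318, 56 and 157 for the first 4. DESeq2 called 824 in memory cells and 633 between the sexes, C-MBC 2 alone 50 for IgA, no filter on low counts 67 and C-MBC 1 alone 19 between the sexes. Leaving out 1 animal gave 1569 to 2327, 794 to 1291, 158 to 264, 586 to 856, 7 to 136 and 4 to 16 in the same order, the lowest of the first 3 without female 3. No filter on low counts brought FOXP1 (adjusted p = 0.0186 by edgeR) and EBF1 (0.0043) in IgA cells past the threshold. Of 170 levels by subtype 4 moved beyond the spread, and thinning to 1000 UMIs moved 39 of 60 shares. BCL6 could not be fitted in C-MBC 2 alone. Leaving out ribosomal protein genes and using C-MBC 2 alone were chosen after seeing the data. Depth limits BCL6 in IgA cells (22 UMIs) and the values of antibody-secreting cells (3 PAX5, 4 FOXP1 and 16 BACH2 UMIs).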
